A study of Mus musculus with 12 samples.

Results

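Cathepsins are a family of proteases that work mainly in the lysosome, and cystatin C is the secreted protein that blocks many of them. The 9 genes described here are the 7 cysteine cathepsins Ctsb, Ctsc, Ctsh, Ctsk, Ctsl, Ctss and Ctsz, the aspartic cathepsin Ctsd, and Cst3, which encodes cystatin C. They were taken by gene symbol from a table of 55092 features, and the list was chosen with earlier results of these data known. All 9 of 9 were among the 14676 genes with enough signal to be tested (at least 1 FPKM in at least 3 libraries). None of them was tested only through the CSA libraries defined below. RNA-Seq had been done on the abdominal aorta of 12 mice, all male, with 3 mice in each of 4 groups. CCN2fl/fl mice carry Ccn2 alleles flanked by loxP sites and no Cre. CCN2SMC∆ mice carry the same alleles and a tamoxifen-inducible Cre (Cre-ERT2) under the Myh11 promoter, so that the deletion is aimed at smooth muscle cells (SMCs) and Ccn2 of other cells is left intact. All mice of both genotypes received 5 doses of tamoxifen from 8 weeks of age, had a washout of 2 weeks, and then carried an osmotic pump for 7 days with saline or with angiotensin II (Ang II), a pressor peptide, at 500 ng/kg/min. The libraries are named by group and mouse as CFS68, CFS69 and CFS70 (CCN2fl/fl, saline), CSS54, CSS55 and CSS56 (CCN2SMC∆, saline), CFA71, CFA72 and CFA74 (CCN2fl/fl, Ang II), and CSA01, CSA02 and CSA03 (CCN2SMC∆, Ang II).

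Cysteine cathepsins are made as inactive proenzymes and are activated in the acidic endolysosome, where they break down proteins taken up or recycled by the cell. Macrophages and other leukocytes are rich in several of them, and SMCs and fibroblasts express others. Outside the cell, cathepsins K, L and S can cut elastin and collagen, which is why the balance between them and cystatin C has been studied in the aneurysmal aortic wall. Cystatin C is released by nearly all cell types and binds the active site of cysteine cathepsins, but not that of the aspartic protease cathepsin D.

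The deposited values are FPKM, the fragments of a gene scaled by exon length and by a factor for each library. That factor was not the plain library total. The median ratio of a library's genes to their geometric mean over all 12 libraries was the same in each (1.01). The exon length counts every annotated exonic base, such as 5808 for Ctsc, whose longest transcript has 3220, and 1358 for Ctss. Orders, shares and ratios between different genes depend on these lengths. Differences are given as log2 of FPKM + 0.1 from a limma fit over all 12 libraries, with 3 mice per group. A gene is said to rise or fall where its p-value, adjusted over all tested genes, was under 0.05, and is called where the log2 difference was also over 1.5 in size. Total depth was 14555508 to 23102755 fragments per library, and even the member with the fewest, Ctss, had 329 to 19259 of them. Ccn2, the deleted gene, was at 709.5, 1108 and 480.1 FPKM in CFS, 436, 639.9 and 587 in CSS, 1013, 1105 and 564 in CFA and 255, 331 and 399 in CSA. It fell in CCN2SMC∆ mice under Ang II (log2 difference -1.41, SE 0.34, adjusted p = 0.00622), and under saline the genotypes overlapped (log2 difference -0.40, SE 0.34, adjusted p = 1).

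CSA03 stood apart from its group. It was the shallowest library and lay 1.21 and 1.20 log2 units (root mean square over tested genes) from CSA01 and CSA02, while those 2 lay 0.505 apart and the pairs within the other groups 0.586 to 0.743. Its levels also ran with the GC content of the transcript: relative to the mean of CSA01 and CSA02, of 10 equal bins of genes ordered by GC, the bin lowest in GC had a median log2 difference of 0.64 and the highest bin one of -1.25, a span of -1.89. In the 9 libraries outside the CSA group this span lay between -0.22 and 0.15. Of the members, Ctsz (57.3% GC), Cst3 (57.2%) and Ctsd (55.9%) have the most GC-rich transcripts and fall in bin 9 of the 10, so their values in comparisons with CSA are given with and without CSA03. The part of GC content in their levels was not tested. Markers of other tissues also differed between libraries. The summed FPKM of 6 skeletal muscle markers was 153 in CFS68 and 244 in CSS55 and 2.58 to 5.57 in the other 10, and that of 7 adipocyte markers ran from 714 to 2909 within CFS.

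**Figure D1:**
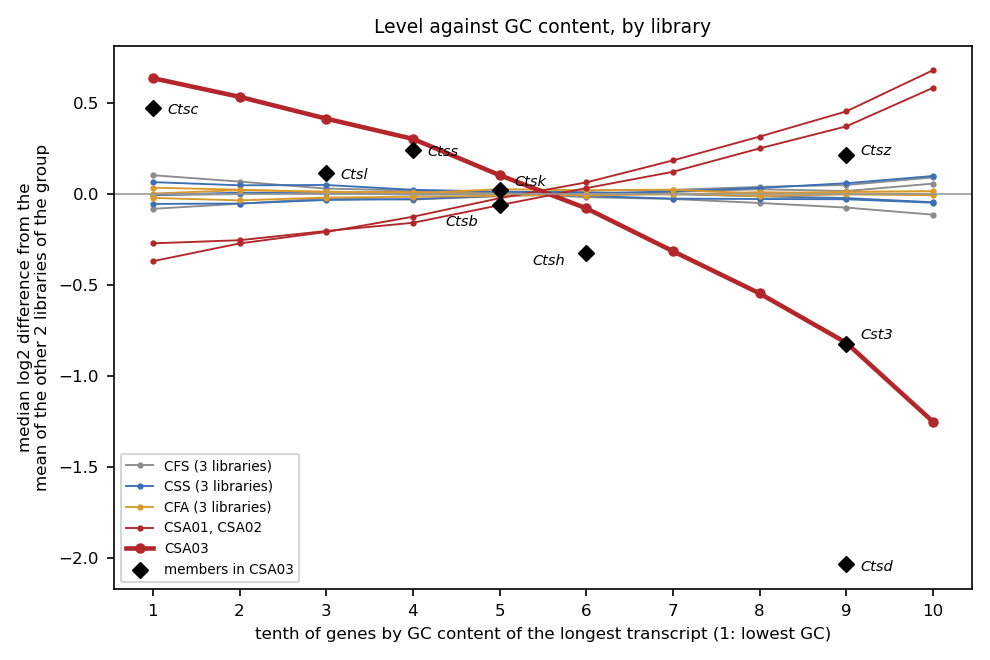
Median log2 difference of each library from the mean of the other 2 of its group (y axis) for 10 equal bins of genes ordered by transcript GC content (x axis), with the members' own differences in CSA03 as diamonds. CSA03 runs from 0.64 in the lowest bin to -1.25 in the highest. Ctsd lies at -2.03, Cst3 at -0.82 and Ctsz at 0.21, all in bin 9, whose median is -0.82.

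The comparison of genotypes under Ang II asks what loss of Ccn2 in SMCs changes during the infusion. Of the 9 members, 2 were called higher (Ctss and Ctsc) and none lower, against 17.2% of all tested genes called in either direction and 8.95% called higher. By the adjusted p alone 5 rose (Ctss, Ctsc, Ctsz, Ctsb and Ctsh) and 1 fell (Cst3), where 40.7% of all genes passed, 19.5% rose and 21.2% fell. The groups did not overlap for 7 members, these 6 and Ctsk, of which 6 were higher and 1 lower, against 48.5% of all genes (23.4% higher and 25.1% lower). The median log2 difference of the members was 0.65, and that of all tested genes -0.037. In bulk tissue, a change in the number of cells that express a gene and a change in RNA per cell cannot be told apart.

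**Figure D2:**
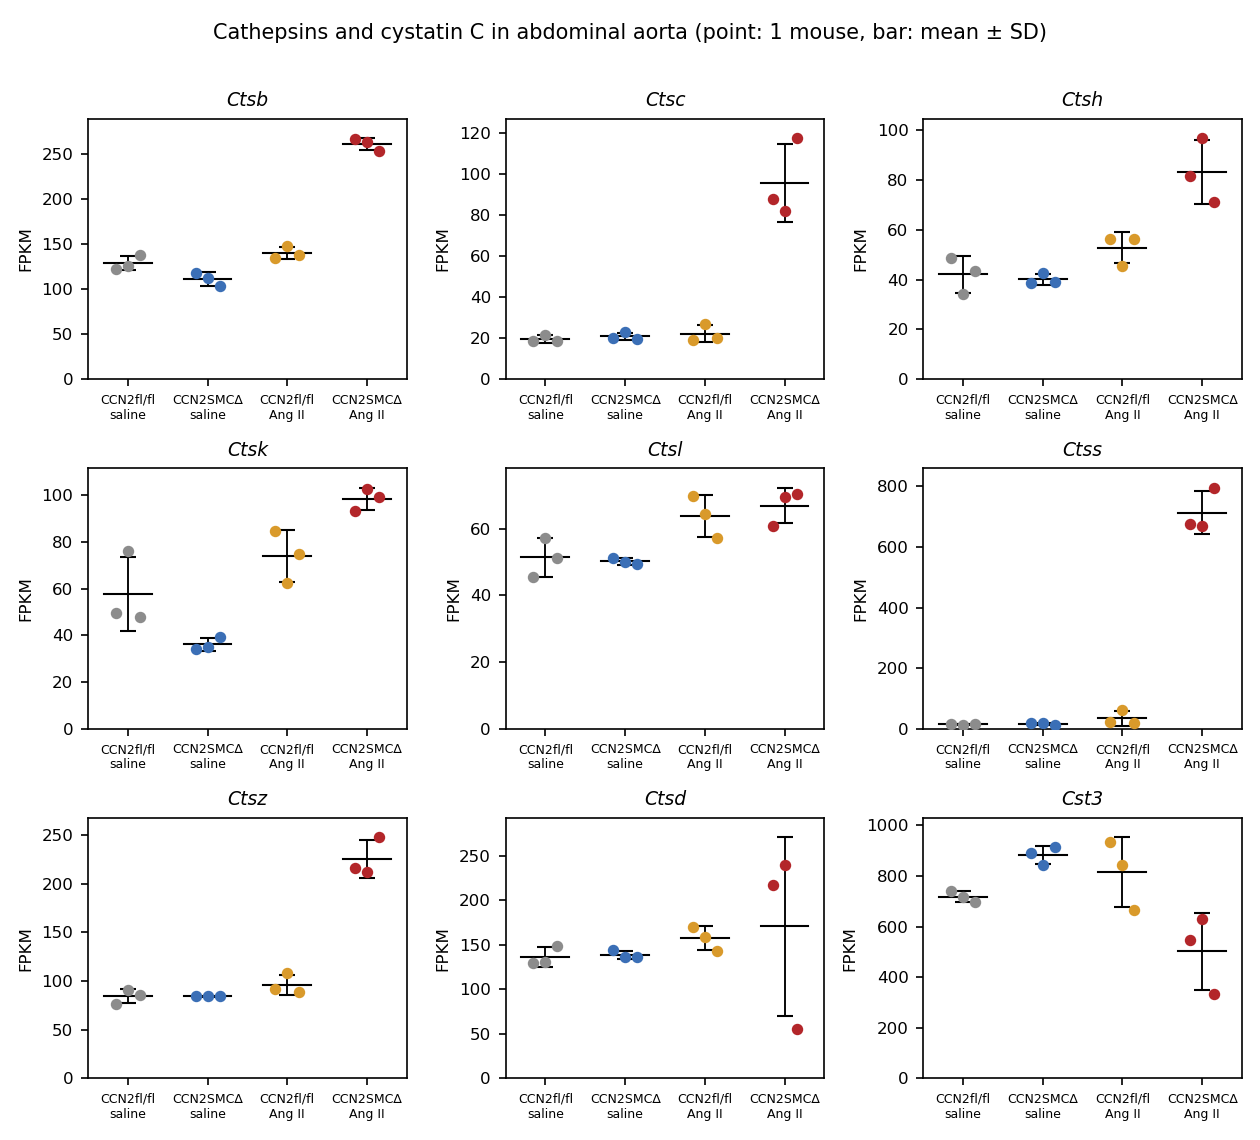
FPKM (y axis, from 0) of each of the 9 members in each mouse, by group, with the mean and SD as bars. Ctss reaches 669 to 796 in the 3 Ang II-infused CCN2SMC∆ mice and stays at 61.3 or lower in the other 9, while the Ctsd values of that group split into 217 and 239 against 55.6.

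Ctss, Ctsk and Ctsl are endopeptidases, which cut within a protein chain, and Ctss showed the largest difference of the 9 members. Cathepsin S trims the invariant chain from major histocompatibility complex class II molecules in antigen-presenting cells and, unlike most of the family, stays active at neutral pH. Ctss (ENSMUSG00000038642, chr3:95526786-95556403, plus strand in GRCm38) was at 16.7, 13.7 and 14.0 FPKM in CFS, 18.9, 18.2 and 12.5 in CSS, 20.96, 61.3 and 19.3 in CFA and 674, 669 and 796 in CSA. The 3 CSA mice were close together and all far above the other 9, and of those 9 only CFA72 stood out above a narrow band. The Ang II-infused CCN2SMC∆ level was 24.3-fold that of CCN2fl/fl (log2 difference 4.60, SE 0.36, adjusted p = 5.33e-06, 95% interval 3.80 to 5.41). Leaving out any 1 mouse moved the difference between 4.31 and 5.14, the higher value being that without CFA72.

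Ctsk lies next to Ctss on the same strand of chromosome 3 (chr3:95499256-95509362), with 17423 bases between them and no protein-coding gene annotated there. Cathepsin K is the collagenase and elastase of the osteoclast, the bone-resorbing cell, and is also made by fibroblasts and SMCs. Its FPKM was 49.4, 76.1 and 47.7 in CFS, 34.1, 35.0 and 39.4 in CSS, 84.6, 62.2 and 74.8 in CFA and 93.3, 103 and 99.3 in CSA. The CSA mice were above all CFA mice, but the difference of 0.42 (SE 0.18) had an adjusted p of 0.0885 and did not pass, although it did after scaling all libraries to equal totals (0.51, adjusted p = 0.0451). Of the protein-coding genes on either side of the pair, Arnt, a partner of the aryl hydrocarbon receptor, did not pass (log2 difference -0.11, adjusted p = 0.434), and Hormad1, a meiotic gene, was listed at 0 in all 12 libraries. Against CFA, the CSA level was 24.3-fold for Ctss and 1.34-fold for Ctsk.

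Cathepsin L is a broad endopeptidase of most cells. Ctsl (ENSMUSG00000021477, chr13:64359337-64370890, minus strand) was at 45.5, 57.3 and 51.4 FPKM in CFS, 51.3, 50.0 and 49.4 in CSS, 69.7, 64.3 and 57.1 in CFA and 60.8, 69.6 and 70.6 in CSA. The genotypes overlapped under Ang II (log2 difference 0.073, SE 0.13, adjusted p = 0.674, 95% interval -0.20 to 0.35). Ctsl shares 26.8% of its exonic bases with a pseudogene and an antisense transcript, both listed at 0 in all libraries.

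The sequence before the transcription start is shown for 3 members: Ctss and Ctsc, which were called, and Ctsk, the neighbour of Ctss that was not. Each is the 250 bases before the RefSeq start in GRCm38.p6, written 5′ to 3′ on the gene's strand, and none of the 3 windows overlaps an annotated exon. Capitals mark the matches to the searched motifs.
Ctss (chr3:95526536-95526785, plus strand): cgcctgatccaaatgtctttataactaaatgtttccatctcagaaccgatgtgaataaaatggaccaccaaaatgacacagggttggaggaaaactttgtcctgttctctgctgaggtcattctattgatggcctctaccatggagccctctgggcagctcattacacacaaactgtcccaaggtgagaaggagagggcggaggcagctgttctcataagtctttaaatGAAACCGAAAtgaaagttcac
Ctsk (chr3:95498960-95499209, plus strand): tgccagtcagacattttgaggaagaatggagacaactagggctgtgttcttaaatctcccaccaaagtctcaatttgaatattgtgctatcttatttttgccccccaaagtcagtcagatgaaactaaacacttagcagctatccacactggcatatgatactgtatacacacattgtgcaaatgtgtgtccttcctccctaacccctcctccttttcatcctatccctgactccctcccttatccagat
Ctsc (chr7:88277835-88278084, plus strand): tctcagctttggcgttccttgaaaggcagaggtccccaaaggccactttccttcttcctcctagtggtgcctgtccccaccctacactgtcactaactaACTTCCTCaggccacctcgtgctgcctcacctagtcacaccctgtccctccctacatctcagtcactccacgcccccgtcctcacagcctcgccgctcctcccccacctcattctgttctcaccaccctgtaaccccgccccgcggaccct
Windows were found for 7 of the 9 members (not for Ctsb and Ctsh) and for 32817 starts in all, and both strands were searched for 4 motifs chosen with earlier results of these data known. The core of the interferon-stimulated response element, GAAA and again GAAA after 2 bases of any kind, matched once in Ctss, as GAAACCGAAA ending 11 bases before the start, and in 2.97% of all windows. GAGGAAGT, the core of the site of the myeloid factor PU.1, matched on the opposite strand in Ctsc (ACTTCCTC, 143 bases before the start) and in 2.44% of all windows. CACGTG, the E-box core within the element bound by the lysosomal regulator TFEB, was found in Ctsd (2 matches) and Ctsl (1 match) and in 6.02% of all windows. Of the 250 bases of each of these 2 windows, 211 in Ctsd and 48 in Ctsl are annotated as exon of some transcript. The AP-1 site TGACTCA, which matched 4.46% of all windows, had no match in the 7. No motif of the 4 contains another, and a match describes the letters only.

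Exopeptidases cut single residues or pairs of residues from the ends of proteins, and Ctsc, Ctsz, Ctsb and Ctsh have such an activity. Cathepsin C, also called dipeptidyl peptidase I, activates the serine proteases in the granules of neutrophils, mast cells and cytotoxic lymphocytes. Ctsc (ENSMUSG00000030560, chr7:88278085-88310888, plus strand) was at 18.6, 21.7 and 18.5 FPKM in CFS, 20.3, 22.8 and 19.6 in CSS, 19.3, 26.9 and 20.3 in CFA and 87.8, 82.0 and 118 in CSA. All 3 CSA mice lay far above the other 9, of which CFA72 was the highest. Ctsc rose 4.30-fold (log2 difference 2.10, SE 0.17, adjusted p = 5.83e-06). CSA03 was the highest of its group for this GC-poor transcript (41.1%), and without it the difference was 1.95 (adjusted p = 4.12e-06).

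Cathepsin Z, also named cathepsin X, is a carboxypeptidase of monocytes and macrophages that can process integrin β chains. Ctsz (ENSMUSG00000016256, chr2:174427493-174439039, minus strand) was at 76.4, 91.3 and 85.9 FPKM in CFS, 84.2, 84.3 and 85.1 in CSS, 91.5, 108 and 88.5 in CFA and 216, 212 and 248 in CSA. Its CSA mice formed a tight group with no overlap with the rest, and CSA03 was the highest of them. Ctsz rose 2.35-fold (log2 difference 1.23, SE 0.12, adjusted p = 2.2e-05), and without CSA03 the log2 difference was 1.16.

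Cathepsin B is both an endopeptidase and a carboxydipeptidase and is among the most abundant lysosomal proteases of many cells. Ctsb (ENSMUSG00000021939, chr14:63122462-63145923, plus strand) was at 122, 126 and 138 FPKM in CFS, 118, 112 and 103 in CSS, 135, 148 and 137 in CFA and 267, 263 and 254 in CSA. The CSA values were close to each other and lay above every other mouse. The rise was 1.87-fold (log2 difference 0.90, SE 0.11, adjusted p = 7.15e-05). Ctsb shares 12.8% of its exonic bases with Fdft1 on the opposite strand, which stayed between 4.11 and 7.70 FPKM.

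Cathepsin H is an aminopeptidase, known for processing surfactant protein in lung. Ctsh (ENSMUSG00000032359, chr9:90054152-90076089, plus strand) was at 48.7, 34.1 and 43.5 FPKM in CFS, 38.5, 42.6 and 39.2 in CSS, 56.5, 45.6 and 56.5 in CFA and 81.6, 96.9 and 71.1 in CSA. All CSA mice were above all CFA mice, by a smaller margin than for Ctsb or Ctsz. Ctsh rose 1.57-fold (log2 difference 0.65, SE 0.17, adjusted p = 0.00896).

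Cathepsin D, the aspartic member, is a major protease of the lysosome in most tissues and is not inhibited by cystatin C. Ctsd (ENSMUSG00000007891, chr7:142375911-142388038, minus strand) was at 129, 131 and 149 FPKM in CFS, 144, 136 and 137 in CSS, 170.4, 158 and 144 in CFA and 217, 239 and 55.6 in CSA. CSA01 and CSA02 were the highest of all 12 and CSA03 was the lowest. The group difference of -0.14 (SE 0.43, adjusted p = 0.82) is a mean over these unlike libraries. Without CSA03, Ctsd rose by 0.54 (adjusted p = 0.00213), and with libraries weighted by their quality it was 0.47 higher (adjusted p = 0.0165). The log2 difference of CSA03 from the mean of CSA01 and CSA02 was -2.03 for Ctsd and -0.82 for the median gene of its GC bin. It shares 34.4% of its exonic bases with a readthrough gene model, Gm49369, listed at 0 in all libraries.

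Cst3, the inhibitor, was the only member that fell. Cst3 (ENSMUSG00000027447, chr2:148871722-148875692, minus strand) was at 741, 718 and 696 FPKM in CFS, 889, 844 and 915 in CSS, 936, 846 and 666 in CFA and 546, 629 and 332 in CSA. All CSA mice were below all of the other 9, with CSA03 lowest, and CFA74 was the lowest outside the group. Cst3 fell 1.67-fold (log2 difference -0.74, SE 0.22, adjusted p = 0.0188). Without CSA03 it was -0.46 (adjusted p = 0.0199), a fall that was smaller but still passed. It did not pass when CFA71 or CFA72 was left out (adjusted p = 0.0739 and 0.0526) or when only the CSA and CFA libraries were fitted (adjusted p = 0.109). In CSA03 Cst3 lay as far below CSA01 and CSA02 as the median gene of its GC bin (both -0.82).

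**Figure D3:**
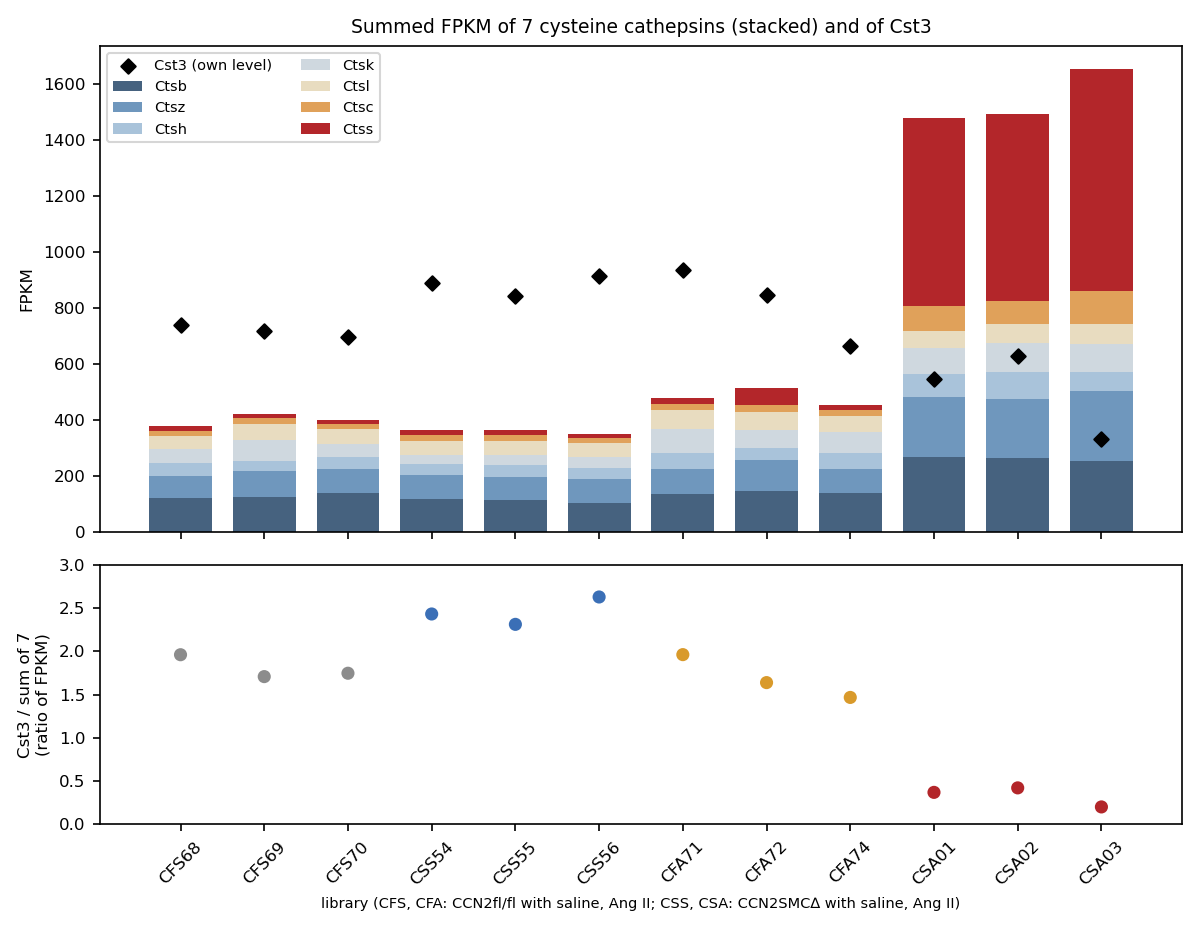
Upper panel: FPKM of the 7 cysteine cathepsins stacked for each library, with the level of Cst3 as a diamond. Lower panel: Cst3 divided by that sum. In the 9 libraries outside CSA, Cst3 exceeds the sum and the ratio lies between 1.47 and 2.63, and in the 3 CSA libraries it lies between 0.200 and 0.420.

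The order of the 9 levels in CSA was unlike that of the other groups. In CFS, CSS and CFA the order began with Cst3 (means 718, 883 and 816 FPKM), then Ctsd, Ctsb and Ctsz, of which Ctsd and Ctsb overlapped in CFS and CFA. Ctss was the lowest of the 9 in both saline groups, at 14.8 ± 1.63 (SD, n = 3) and 16.5 ± 3.49 FPKM, and in CFA it overlapped its neighbours in the order, Ctsh and Ctsc. In CSA Ctss stood first at 713 ± 71.8 FPKM, above Cst3 at 502 ± 153, with no overlap between these neighbours. Below them came Ctsb at 261 ± 6.65 FPKM and Ctsz at 225 ± 19.7, which were separate. From Ctsz down to Ctsh, through Ctsd, Ctsk and Ctsc, neighbours in the order overlapped, and Ctsl was last at 67.0 ± 5.38 FPKM.

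The summed FPKM of the 7 cysteine cathepsins was 399 ± 21.3 in CFS, 359.7 ± 9.90 in CSS, 482 ± 31.5 in CFA and 1544 ± 97.6 in CSA (mean ± SD, n = 3). Ctss made up 3.73 ± 0.606%, 4.58 ± 0.859%, 6.84 ± 4.36% and 46.1 ± 1.73% of it. Ctsb, the largest share elsewhere, went from 29.0 ± 1.09% in CFA to 17.0 ± 1.45% in CSA although its own level rose. The ratio of Cst3 to the sum was 1.80 ± 0.136 in CFS, 2.46 ± 0.160 in CSS, 1.69 ± 0.251 in CFA and 0.330 ± 0.115 in CSA, where it was 0.395 without CSA03. These sums and ratios are descriptions of transcript levels, depend on the exon lengths counted for each gene, and were given no test.

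The comparison of genotypes under saline asks how the family differed without the infusion. Ccn2 itself overlapped between these groups, as given above. None of the 9 members passed the limma test, against 0.0204% of all tested genes that did by adjusted p. At an unadjusted p under 0.05 there was 1, Ctsk, against 6.3% of all genes. Ctsk was 1.56-fold lower in CSS than in CFS (log2 difference -0.64, SE 0.18, adjusted p = 0.469), with all 3 CSS mice (34.1 to 39.4 FPKM) below all CFS mice (47.7 to 76.1). Without CFS69 the difference was -0.43. In the same comparison all 7 adipocyte markers (median -1.23) and 6 of 8 fibroblast markers (median -0.33) were below 0, none of them passing, and their part in the Ctsk values was not tested. Ctsb was also lower without overlap (log2 difference -0.21, SE 0.11, adjusted p = 0.844) and Cst3 higher without overlap (log2 difference 0.30, SE 0.22, adjusted p = 0.994). The SE of Cst3 comes from all 4 groups, whose SDs were 22.1 and 36.1 FPKM in CFS and CSS and 138 and 153 in CFA and CSA. Over the alternatives its limma adjusted p was 0.154 at the lowest. Ctsk, Ctsb and Cst3 made 3 members whose groups did not overlap, against 20.4% of all genes (11.1% higher and 9.31% lower). Differences of the other 6 lay between -0.056 and 0.14, and the 95% interval for Ctss, -0.66 to 0.95, held changes in either direction.

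Ang II against saline in CCN2fl/fl mice gives the response of the family with Ccn2 present. All 9 log2 differences were above 0, from 0.12 for Ctsb to 0.98 for Ctss, and none passed, where 0.0341% of all tested genes did. At an unadjusted p under 0.05 there were 2, Ctss and Ctsl, against 9.42% of all genes. The groups of Ctss did not overlap, the only member of which this held, while 9.44% of all genes were higher without overlap. Ctss was 1.97-fold higher (log2 difference 0.98, SE 0.36, adjusted p = 0.422). Most of that difference came from CFA72, at 61.3 FPKM, while CFA71 and CFA74 were at 20.96 and 19.3 and the CFS mice at 13.7 to 16.7. Without CFA72 the log2 difference was 0.45. CFA72 also had the highest summed macrophage markers of its group (792 FPKM, against 379 in the lowest of the 3), whose part in its Ctss level was not tested. Ctsl was 1.24-fold higher (log2 difference 0.31, SE 0.13, adjusted p = 0.46).

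The same infusion was also compared with saline in CCN2SMC∆ mice. By the adjusted p 7 members rose and Cst3 fell, with only Ctsd not passing, where 46.2% of all tested genes passed, 22.3% rising and 23.9% falling. Only Ctss and Ctsc passed the fold limit as well, against 20.3% of all genes in either direction and 10.9% higher. Ctss was 43.4-fold higher in CSA than in CSS (log2 difference 5.44, SE 0.36, adjusted p = 1.22e-06), and Ctsc 4.52-fold (log2 difference 2.18, SE 0.17, adjusted p = 3.12e-06). Ctsk rose 2.72-fold (log2 difference 1.44, SE 0.18, adjusted p = 8.27e-05), and CSS had the lowest Ctsk of the 4 groups. Log2 differences of Ctsz, Ctsb, Ctsh and Ctsl were 1.41, 1.23, 1.04 and 0.41, with adjusted p-values of 6.33e-06, 6.11e-06, 0.000391 and 0.02. Without CSA03 Ctsz was at 1.34. The rise of Ctsl was small (1.33-fold) and did not pass when CSS55, CSS56 or CSA02 was left out or only the CSA and CSS libraries were fitted (adjusted p = 0.0561, 0.0627, 0.0593 and 0.0512). Cst3 fell 1.82-fold (log2 difference -0.86, SE 0.22, adjusted p = 0.00696), and its log2 difference was -0.59 without CSA03. Ctsd did not pass with all libraries (log2 difference 0.037, SE 0.43, adjusted p = 0.951) and rose by 0.71 without CSA03 (adjusted p = 0.00029). This comparison and the one between genotypes under Ang II share the CSA libraries.

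**Figure D4:**
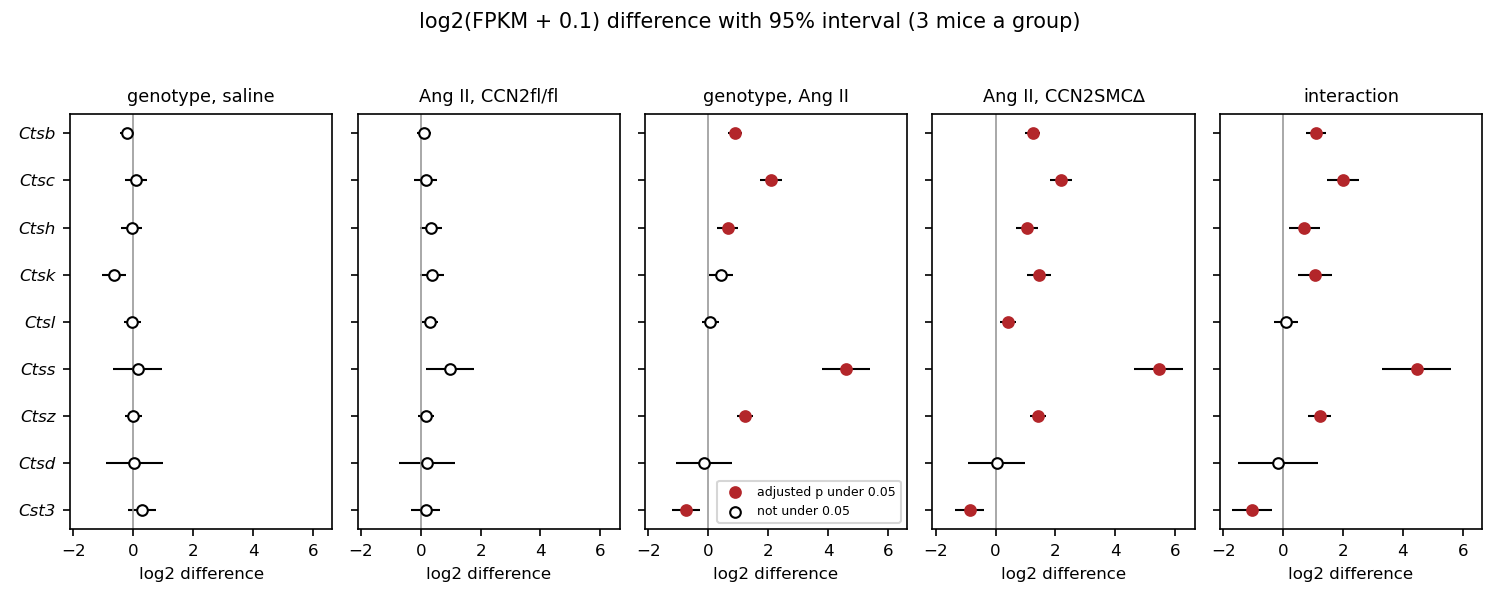
Difference in log2(FPKM + 0.1) of each member (x axis) with its 95% interval, in 5 panels for the 4 comparisons and the interaction. Filled points had an adjusted p under 0.05. No member is filled in the 2 panels without CSA mice, and in the interaction Ctss lies at 4.46 and Cst3 at -1.03.

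The interaction tests whether the genotype difference under Ang II differs from that under saline. It passed for 7 of the 9 members, 6 of them positive and Cst3 negative, against 26.4% of all tested genes (12.8% positive and 13.7% negative). With the fold limit 2 remained, Ctss and Ctsc, against 15.2% in either direction and 7.89% positive. The term was 4.46 for Ctss (SE 0.52, adjusted p = 0.00019) and 2.01 for Ctsc (SE 0.24, adjusted p = 0.00023). For Ctsk it was 1.07 (adjusted p = 0.0115), made of a negative difference under saline and a positive one under Ang II, neither of which passed by itself. Cst3 had the reverse pattern, 0.30 under saline and -0.74 under Ang II, with a term of -1.03 (adjusted p = 0.0287), or -0.76 without CSA03. The term of Ctsz was 1.23, or 1.16 without CSA03, and that of Ctsb 1.11. The terms of Cst3 and Ctsh were close to the threshold and did not pass under 8 and 13 of the 19 alternatives, with adjusted p-values up to 0.0728 and 0.114. Ctsl (0.10, adjusted p = 0.722) and Ctsd (-0.17, adjusted p = 0.866) did not pass, and without CSA03 Ctsd was 0.51 (adjusted p = 0.0202).

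Around the members, the other proteins that cathepsins work with were compared in the same way between CSA and CFA. Over all tested genes, 40.7% passed in this comparison (19.5% up and 21.2% down) and 8.95% were called higher. A gene that passed the filter on low values only through the CSA libraries was picked in part for its level there, so the number of such genes is given for each list. Among 15 other cathepsins, 5 were tested, 2 of them (Ctsw and Ctse) only through CSA, and among the other 3, 1 rose and 1 fell. Ctsw, a cathepsin of cytotoxic lymphocytes, was at 0.373, 0.650 and 0.268 FPKM in CFA and 11.7, 8.99 and 5.77 in CSA. Ctse, an aspartic protease of immune and gastric cells, was at 0.507, 0.119 and 0.312 and 1.99, 1.55 and 3.05 FPKM. These 2 are given with no test. Ctsa, the carboxypeptidase that protects lysosomal galactosidase and sialidase, rose by 0.80, and Ctsf fell (log2 difference -2.00, adjusted p = 0.000398). Ctsf was at 37.2, 29.4 and 44.8 FPKM in CFA and 11.9, 12.8 and 4.86 in CSA, so no CSA mouse reached the CFA range. Ctso did not pass, and 9 of the 10 untested ones, which in the mouse are known mainly from the placenta, were listed at 0 in all libraries.

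Of 22 cystatins and related inhibitors 10 were tested, 5 of them (Cst7, Stfa2l1, Kng1, Kng2 and Ctla2b) only through CSA. Of the other 5, 3 rose and the rest did not pass. Cstb, cystatin B, an inhibitor inside the cell, was at 66.5, 81.3 and 51.7 FPKM in CFA and 137, 155 and 90.7 in CSA and rose (adjusted p = 0.00398). Ctla2a, which resembles a cathepsin propeptide, was at 12.5, 8.65 and 6.42 FPKM in CFA and 54.5, 87.2 and 128 in CSA and also rose (adjusted p = 2.2e-05). Stfa2l1, a stefin gene of myeloid cells, went from 0.110, 0 and 0.113 FPKM in CFA to 9.40, 12.04 and 33.6 in CSA. Serpina3g, an intracellular serpin that inhibits cathepsins, went from 1.20, 2.42 and 0.448 to 58.3, 73.1 and 57.9 FPKM (5.69, adjusted p = 9.52e-06). The kininogen genes Kng1 and Kng2, whose products carry cystatin domains, reached means of 9.91 and 26.9 FPKM in CSA from 0.232 and 0.371 in CFA, and like Stfa2l1 they are given with no test. The log2 difference of Serpina3g was 4.85 with a pseudocount of 1 in place of 0.1. Genes of the stefin, kininogen and Serpina3 families have close copies, so reads may be shared between them.

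Of 37 lysosomal hydrolases 1 (Galc) was tested only through CSA, and of the other 36, 17 rose and 4 fell, 3 and 0 of them past the fold limit. Those past the fold limit numbered 1 up without CFA74 and 1 down without CSA03. Lgmn, the asparaginyl endopeptidase that cuts several procathepsins to their mature forms, rose most, from 57.7 to 275 FPKM (log2 difference 2.28, adjusted p = 2.84e-06). Gla, Dnase2a and Ids, an α-galactosidase, a DNase and a sulfatase, had log2 differences of 1.53, 1.51 and -1.36, all with an adjusted p under 0.05. Of 28 tested genes of the lysosomal membrane and its proton pump 12 rose and none fell (median 0.32). Laptm5, Slc11a1, Tcirg1 and Cln3 led, at 3.21, 2.31, 1.88 and 1.64, and the first 2 are known from leukocytes. Of 15 genes that sort enzymes to the lysosome or regulate it 4 rose and 3 fell (median -0.034), a median whose sign changed with the settings. Among them Sort1, the sorting receptor sortilin, and Gga2, an adaptor, fell (means of 21.2 and 8.87 FPKM in CFA and 3.93 and 4.43 in CSA), while Grn, progranulin, and Gnptab, which helps to make the mannose 6-phosphate tag, rose (log2 differences 0.93 and 0.78).

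Of 9 genes for known cathepsin substrates 5 rose and 2 fell. Cd74, the invariant chain trimmed by cathepsin S, was at 92.3, 343 and 132 FPKM in CFA and 1488, 1311 and 1415 in CSA (log2 difference 3.12, adjusted p = 0.000162). Like Ctss, Cd74 was highest in CFA72 among the 9 mice outside CSA. Eln, elastin, was at 2263, 1618 and 774 FPKM in CFA and 970.4, 865 and 338 in CSA and did not pass (log2 difference -1.11, SE 0.42, adjusted p = 0.0558), but it did without CFA74 or CSA01 and with array weights. Leaving out 1 mouse moved its difference between -1.54 and -0.63, the value nearest 0 being that without CSA03, and its adjusted p was 0.00801 to 0.203 over all alternatives. Tg, thyroglobulin, fell from a mean of 0.880 to 0.211 FPKM (log2 difference -1.67, or -0.63 with a pseudocount of 1, adjusted p = 0.00195). Acan, aggrecan, did not pass (1.06, adjusted p = 0.0929), but it did without CFA72 and with array weights, and leaving out 1 mouse moved it between 0.55 (without CFA74) and 1.74 (without CFA72), with an adjusted p up to 0.337. The substrates called numbered 1 up and 1 down, with 2 up without CFA72, 2 down without CFA74 and 0 down without CSA03 or with a pseudocount of 1, since the call down was Tg.

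**Figure D5:**
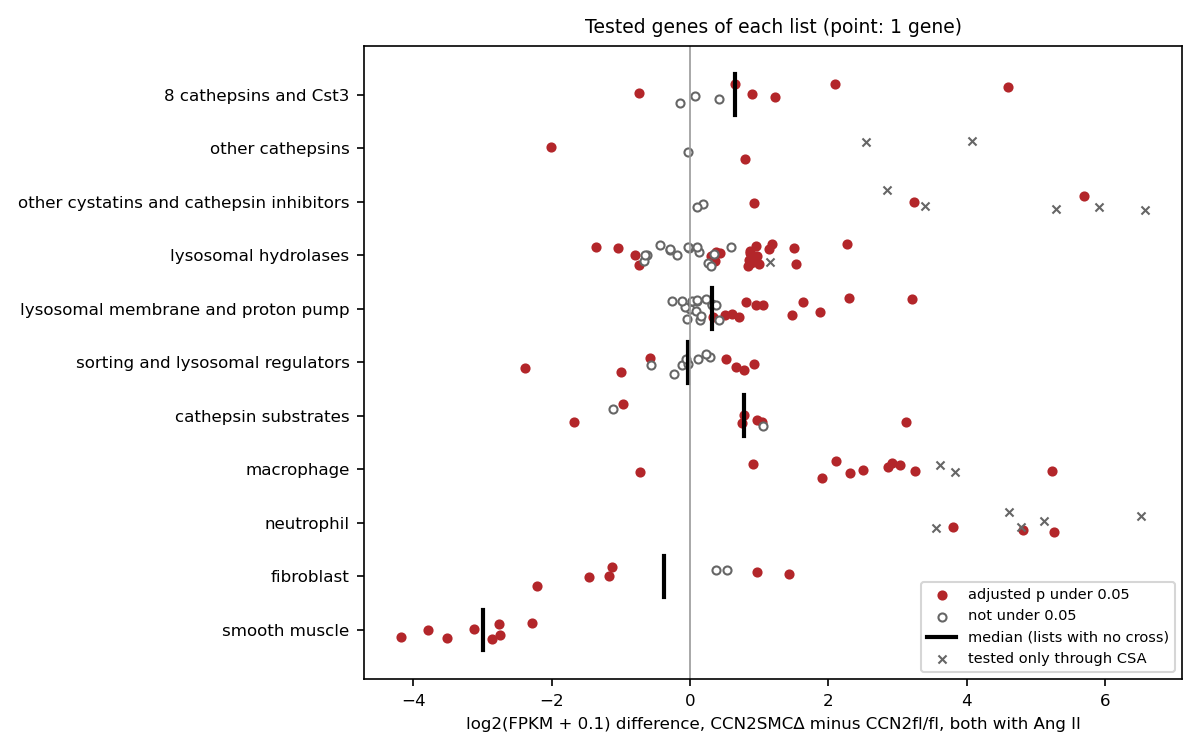
Log2 difference between CSA and CFA (x axis) for each tested gene of the lists named in the text and of 4 marker lists. Crosses are genes tested only through CSA, and lists with none of them have their median as a bar. The members' median is 0.65 and that of the smooth muscle markers -2.99.

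Marker genes of several cell types differed between CFA and CSA as well. All 13 macrophage markers were tested, 2 of them only through CSA, and among the other 11, 10 rose and 1, Mertk, fell. Their summed FPKM was 312 to 373 in CFS, 337 to 408 in CSS, 379 to 792 in CFA and 2514 to 2843 in CSA. Of the 8 tested neutrophil markers 5, and of the 8 T cell markers all, were tested only through CSA, and the other 3 neutrophil markers rose. The 2 lists had summed FPKM of 11.1 to 28.1 and 1.06 to 3.26 in CFA and 525 to 572 and 31.6 to 44.4 in CSA. All 8 smooth muscle markers fell, with sums of 8202 to 10305 FPKM in CFS, 5532 to 8420.0 FPKM in CFA and 799.8 to 959 in CSA, with Myh11, Acta2 and Cnn1 at -4.17, -2.86 and -3.80. Of the 8 fibroblast markers 2 rose and 4 fell, with a median of -0.37. Their summed FPKM was 2294 to 2532 in CFA and 3589 to 4275 in CSA, of which Col1a1, also a substrate gene, made up means of 1439 and 2823. Of the defining fibroblast genes Lum rose (1.44, adjusted p = 0.000222), and Pdgfra (0.38, or 0.15 without CSA03) and Dcn (0.54, or 0.12 without CSA03) did not pass. Dcn was at 289, 294 and 707 FPKM in CSA. Without CFA72 Pdgfra was at 0.22. Of the other lists, 3 of 7 dendritic cell and 3 of 4 B cell markers were tested only through CSA, and of the remaining dendritic cell markers 1 rose and 1 fell, and the remaining B cell marker rose. Further, 1 of 7 endothelial markers rose and 3 fell, 2 of 7 adipocyte and all 5 erythrocyte markers fell, and none of 4 skeletal muscle markers and of 1 lymph node stroma marker passed. Of 5 Schwann cell markers 1 rose, and of 5 tested osteoclast markers 3 rose (Mmp9, Nfatc1 and Tnfrsf11a) and 1 fell (Itgb3). Mmp9 was at 2.33, 5.09 and 2.80 FPKM in CFA and 19.2, 20.8 and 16.9 in CSA, and Acp5 at 9.23, 12.1 and 12.6 and 20.1, 19.6 and 12.2. Of the defining osteoclast genes, Dcstamp and Ocstamp were under 1 FPKM in every library and Calcr was at or near 0. The part of these shifts in cell markers in the member differences was not tested.

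Ctss was also set against single macrophage genes, as ratios of FPKM without a test. Ctss divided by Cd68 was 1.85 ± 0.280 in CFS, 1.96 ± 0.272 in CSS, 2.33 ± 0.248 in CFA and 6.86 ± 0.840 in CSA. Divided by Adgre1 it was 3.20 ± 0.917 in CFA and 9.92 ± 1.21 in CSA, and by Csf1r 1.03 ± 0.385 and 6.46 ± 1.23. These 3 ratios did not overlap between CSA and CFA. Against Fcgr1, a marker picked after its values were seen, the ratio was instead lower in CSA, at 9.37 ± 0.206 against 16.0 ± 4.59 in CFA, with separate ranges.

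The genes whose profile over the 12 libraries lay closest to a member were found by the root mean square difference of centred log2 values. They were sought among all tested genes with an Ensembl identifier other than the members. Among those closest to Ctss was Cxcr4 (0.296), with a median of 2.37 over all genes. Gm47242 (0.282) also lay close, but it was listed at 0 in CFS and CSS and was tested only through CSA, which by itself gives such a profile. Cxcr4 encodes a chemokine receptor of leukocytes and was at 48.8 FPKM in CSA. Closest to Ctsk lay Col1a2 (0.242), Heph (0.243) and Mmp2 (0.244), against a median of 0.721. Col1a2 encodes a chain of type I collagen and Mmp2 a gelatinase, and both, like Ctsk, were lowest in CSS and highest in CSA. For Ctsz the nearest were Ifnar1, Rpl32 and Crlf3 (0.0913 to 0.0990, median 0.752). For Cst3 they were Sept5, Actr1b and Pomgnt1 (0.0899 to 0.108, median 0.555), none of them a protease or inhibitor gene. Likeness of profile is a description over libraries that share their depth and composition.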

How the data were processed

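Total RNA of the infrarenal abdominal aorta had been sequenced as paired reads of 150 bases. Per the submitters' processing notes, reads were aligned to mm10 with HISAT2 2.0.5, StringTie 1.3.3b was used, and fragments were counted with featureCounts 1.5.0-p3. The authors deposited FPKM per gene in 1 table, and fragment totals were recovered from FPKM and GENCODE M21 exon lengths (98.0 to 98.5% of values under 100 fragments were whole within 0.05). From these values log2(FPKM + 0.1) was computed for genes with at least 1 FPKM in at least 3 libraries and fitted with limma 3.58.1 in R 4.3.3, with 1 coefficient per group and the trend and robust settings, and p-values were adjusted by Benjamini-Hochberg over 14676 genes. The study's methods used DEG-Seq, which takes counts, so limma on the log scale replaced it, with the study's fold limit and with its p-value threshold applied to adjusted p-values. Rows without an Ensembl identifier (560 of 55092) were kept in the fit and in the shares of all genes where they passed the filter. They were left out only of the nearest profiles. The fit was tested on simulated data for CSA against CFA, where 189 of 200 genes changed 8-fold were called and 3 unchanged ones. The simulated noise was independent between genes and of equal spread in all groups, so it lacked the GC trend of CSA03. Differences smaller than 8-fold were not simulated. Members and lists were chosen with earlier results of these data known. Named were all 9 members, Ccn2, the 4 genes of each of the other pathway lists with the largest CSA against CFA difference, up to 3 defining genes of 4 marker lists, the 3 nearest profiles of Ctss, Ctsk, Ctsz and Cst3 (1 is not reported here), and the genes beside Ctss and Ctsk. Genes outside this rule (Ctso, Fcgr1, Mertk, Cstb, Ctla2a, Cst7, Ctla2b, Galc, Mmp9, Nfatc1, Tnfrsf11a, Itgb3, Acp5, Col1a1 and the genes that share exons with members) were named after their values were seen. Promoter windows are from RefSeq, and figures were drawn with matplotlib 3.10.9. Alternatives covered the pseudocount, filter, scaling, variance model, call rule and libraries fitted.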

Additional observations from a re-analysis of the deposited data

Results flagged for a closer look

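For 7 members the genotype difference under Ang II differed from that under saline by limma's interaction term. On the log2 scale the genotype difference under Ang II minus that under saline was 4.46 for Ctss, 2.01 for Ctsc, 1.23 for Ctsz, 1.11 for Ctsb, 1.07 for Ctsk, 0.70 for Ctsh and -1.03 for Cst3. The adjusted p ranged over these 7 from 0.00019 for Ctss to 0.0465 for Ctsh. Ctsh did not pass under 13 of 19 alternatives (adjusted p up to 0.114), among them leaving out any 1 mouse but CFS69 or CSA03. Cst3 did not pass under 8 of 19 (adjusted p up to 0.0728), those that left out a CFS or CSS mouse, CFA71 or CFA72. Without CSA03 the terms of Cst3 and Ctsz were -0.76 and 1.16.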

How the results depend on the processing

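There were 22 alternatives, 12 of which left out 1 mouse, and each result was recomputed under those that bear on it (14 for a member in a comparison and 19 in the interaction). Of 675 member values, 628 kept their direction and side of the threshold, and 28 kept their direction but no longer passed. The 675 include median-of-ratios scaling, which divided all libraries by the same factor (1.01) and so could hardly move a result. A further 3 kept their direction and came to pass, and 16 changed sign. Among those 16, Ctsd also came to pass in CSA against CFA without CSA03 or with array weights, and in the interaction without CSA03. The cause of these changes was not tested. Scaling to equal totals gave 0.035 for Ctsl and 0.0049 for Ctsh in CSS against CFS and a median of 0.046 for the sorting genes, and shifted the median of all genes by at most 0.079. Array weights gave 0.47 for Ctsd in CSA against CFA, 0.0033 for Ctsl in CSS against CFS, 0.43 and -0.0026 for Ctsd and Ctsl in the interaction, and 0.089 for the sorting median. With a mean FPKM of at least 5, the median of the other cathepsins was -0.033, since fewer of them were tested. With no fold limit the members called higher and lower were 5 and 1 in CSA against CFA, 7 and 1 in CSA against CSS, and 6 and 1 in the interaction, where limma's treat called 1 higher. When the fit held the CSA and CFA libraries alone, 0 members were lower by adjusted p in CSA against CFA.

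Leaving out 1 mouse in turn moved Ctsd between -0.51 and 0.54 in CSA against CFA, -0.34 and 0.71 in CSA against CSS, -0.55 and 0.51 in the interaction, and -0.0059 and 0.095 in CSS against CFS. Ctsl lay between -0.0032 and 0.14 in CSA against CFA, and in CSS against CFS Ctsl, Ctsh and Ctsz lay between -0.11 and 0.055, -0.20 and 0.057, and -0.068 and 0.061. The sorting median lay between -0.051 and 0.13. Members lower by adjusted p numbered 0 to 1 in CSA against CFA (0 without CFA71 or CFA72) and 0 to 1 in the interaction (0 without any 1 of the CFS and CSS mice, CFA71 or CFA72). The interaction of Ctsh did not pass under 13 alternatives. No paired analysis was possible because the groups share no mouse numbers. Each member had at least 329 fragments in every library, and the intervals of members that did not pass leave room for differences. P-values set each difference against the spread between mice, which the fit shares over all 4 groups. A wide group, such as CSA for Ctsd, therefore also widens the SE of comparisons without it.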
